A study of Mus musculus with 6 samples.

Results

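Steroid dehydrogenases and reductases add or remove hydrogen at fixed carbons of the steroid ring system, and so switch hormones between active and inactive forms. The liver holds many of them, where they clear androgens, oestrogens and glucocorticoids and also shape the ring of bile acids. Several differ in level between male and female mouse liver, where the pulsing of growth hormone sets the male pattern, and some members of the Hsd17b family sit on the surface of lipid droplets, the stores of neutral fat in the hepatocyte.

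The 10 genes described here were taken by name, out of 55385 genes counted. They were the ring dehydrogenases and ketoreductases Hsd3b2, Hsd3b3 and Hsd3b5, the Hsd17b family genes Hsd17b2, Hsd17b6, Hsd17b11 and Hsd17b13, the double-bond reductases Srd5a1 and Akr1d1, and the cytochrome Cyp17a1. All 10 passed the filter on low counts in the comparison of 14454 genes.

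Poly(A) RNA of whole liver was sequenced in 6 male mice, 3 with vertical sleeve gastrectomy (VSG), in which the larger part of the stomach is cut away, and 3 with a sham operation. All were wild-type C57BL/6 mice, 6 to 8 weeks old at the start, that ate a high-fat diet (HFD) for 10 weeks, were operated on, and stayed on HFD for 12 weeks more. Each library came from 1 animal, with sham libraries numbered 1 to 3 and VSG libraries 4 to 6. No unoperated, chow-fed or weight-matched group was analysed here.

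The libraries held 22804397 to 24191778 counts. Levels are given as CPM, counts scaled to library size with TMM factors (which line up most genes between libraries), and between genes as FPKM, the same value per kilobase of exon. A count of 3 stood at 0.111 to 0.143 CPM and was taken as the floor. Of 8 hepatocyte markers none passed the edgeR test (2 higher and 1 lower at an unadjusted p under 0.05 and in DESeq2), with a summed level of 86507 to 125918 CPM in sham and 103054 to 132679 CPM in VSG. The transferrin gene Trf alone was at 14366 to 17608 CPM in sham and at 51151, 17518 and 47164 CPM in VSG. Without it, a choice made after seeing the values, the sums were 72142 to 108310 CPM in sham and 56800, 85537 and 85514 CPM in VSG, so VSG 4 lay below every sham library. Of 8 adrenal cortex markers 3 (Cyp11b1, Nr5a1 and Mc2r) had no count in any library, and the list summed to 1.32 to 3.69 CPM in sham and 2.56 to 3.03 CPM in VSG. All 10 neutrophil markers were higher after VSG, with sums of 2.74 to 14.8 CPM in sham and 151 to 1859 CPM in VSG, highest in VSG 4. With sums this low in sham, some of these genes passed the filter on low counts only through VSG. Of 8 macrophage markers 4 were higher, with sums of 345 to 730 CPM against 742 to 2165 CPM. All 18 acute phase genes were higher too, and took 2.01% to 2.74% of the counts in sham and 7.24% to 14.7% in VSG, again highest in VSG 4. The call of all 18 fell to 11 without sham 1, 10 without sham 2, 1 without sham 3, 14 without VSG 4 and 5 without VSG 6. The part of these cells and of the acute phase in the results that follow was not tested. In such bulk samples, fewer cells of a type and less RNA per cell cannot be told apart.

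The Hsd3b genes of the set lie side by side on the minus strand of chromosome 3 and are close copies of each other, so their sequences bear on how far their counts can be separated. Over 1122 coding bases each, Hsd3b2 and Hsd3b3 were 95.1% identical, whereas Hsd3b5 was 80.8% identical to Hsd3b2 and 81.1% to Hsd3b3. The first 90 coding bases of each, from GENCODE M21 on GRCm38 (the assembly of mm10), are shown to let this be seen. Capitals mark the bases that differ from Hsd3b2, 4 in Hsd3b3 and 14 in Hsd3b5. They lie at chr3:98716471-98716560 for Hsd3b2, chr3:98753366-98753455 for Hsd3b3 and chr3:98630109-98630198 for Hsd3b5.
Hsd3b2: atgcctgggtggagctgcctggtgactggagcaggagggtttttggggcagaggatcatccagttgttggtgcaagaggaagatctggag
Hsd3b3: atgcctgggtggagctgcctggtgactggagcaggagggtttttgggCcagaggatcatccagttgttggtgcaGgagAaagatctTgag
Hsd3b5: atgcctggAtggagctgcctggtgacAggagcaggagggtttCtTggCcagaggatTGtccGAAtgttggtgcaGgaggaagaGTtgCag

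Of the stretches of 50 bases in their transcripts, 25.1% of those of Hsd3b2 and 6.69% of those of Hsd3b3 also occurred in another gene, in both cases including each other. For Hsd3b5 the share was 21.2%, with Hsd3b4, Gm10681 and Gm4450 as the main partners, all 3 of which had no count in any library. Of the stretches of Hsd3b4 itself 100% occurred in another gene, so its level cannot be read from its lack of counts. Among the other members, Hsd17b6 shared 12.1% with Rdh1 and other retinol dehydrogenase genes and Srd5a1 shared 15.1% with the overlapping transcript Gm17108, which had 2 or 3 counts per library. The share was 0.51% for Hsd17b13 and 0 for Hsd17b2, Hsd17b11, Akr1d1 and Cyp17a1. How reads with several matches were counted is not given in the sources used here. The split between Hsd3b2 and Hsd3b3, and that between Hsd3b5 and its partners, is therefore uncertain.

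Levels per length spanned a wide range. In sham liver Hsd17b13 stood far above the rest with a mean of 360 FPKM, and its 3 libraries did not overlap those of the next gene. Hsd17b6 followed with a highest library of 109 FPKM, then Hsd17b11 and Akr1d1 with means of 89.1 and 77.4 FPKM, neighbours whose ranges overlapped. Hsd17b2, Hsd3b3, Cyp17a1, Srd5a1 and Hsd3b2 came next, from 32.8 down to 10.7 FPKM, each overlapping its neighbour. Hsd3b5 was last at 0.17 FPKM, apart from all others. In VSG liver Hsd17b13 was still first at 189 FPKM, but its range overlapped that of Hsd17b6 at 119 FPKM. These 2 were followed without overlap by the other 8, which ran from 45.6 FPKM for Hsd17b11 to 6.59 FPKM for Hsd3b2, with each neighbour overlapping the next.

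After VSG, 2 of the 10 genes fell at an adjusted p under 0.05 in edgeR's quasi-likelihood test with Benjamini-Hochberg adjustment, namely the lipid droplet protein gene Hsd17b13 and the reductase gene Akr1d1, and none rose. At an unadjusted p under 0.05 Hsd3b5 was higher and 4 genes were lower, and DESeq2, which called 22.7% of all genes, called Hsd3b5 higher and 3 genes lower. Of all genes tested, 14.7% passed the adjusted threshold, 7.87% lower and 6.79% higher, so 2 calls in 10 are near the share of all genes. With scaling to total counts the split of all calls moved from 981 higher and 1137 lower to 486 higher and 1512 lower. The groups did not overlap in 4 of the 10 (Hsd17b11, Hsd17b13, Srd5a1 and Akr1d1, all lower), against 39.7% of all genes. The 4 are close to that share. An unadjusted p under 0.05 was reached by 5 of the 10, against 33.9% of all genes. The median log2 fold change of the 10 was -0.70, beside 0.03 for all genes tested. An exact permutation test of 3 against 3 libraries cannot give a two-sided p below 0.1, so single genes were read from the fit across all genes.

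**Figure D1:**
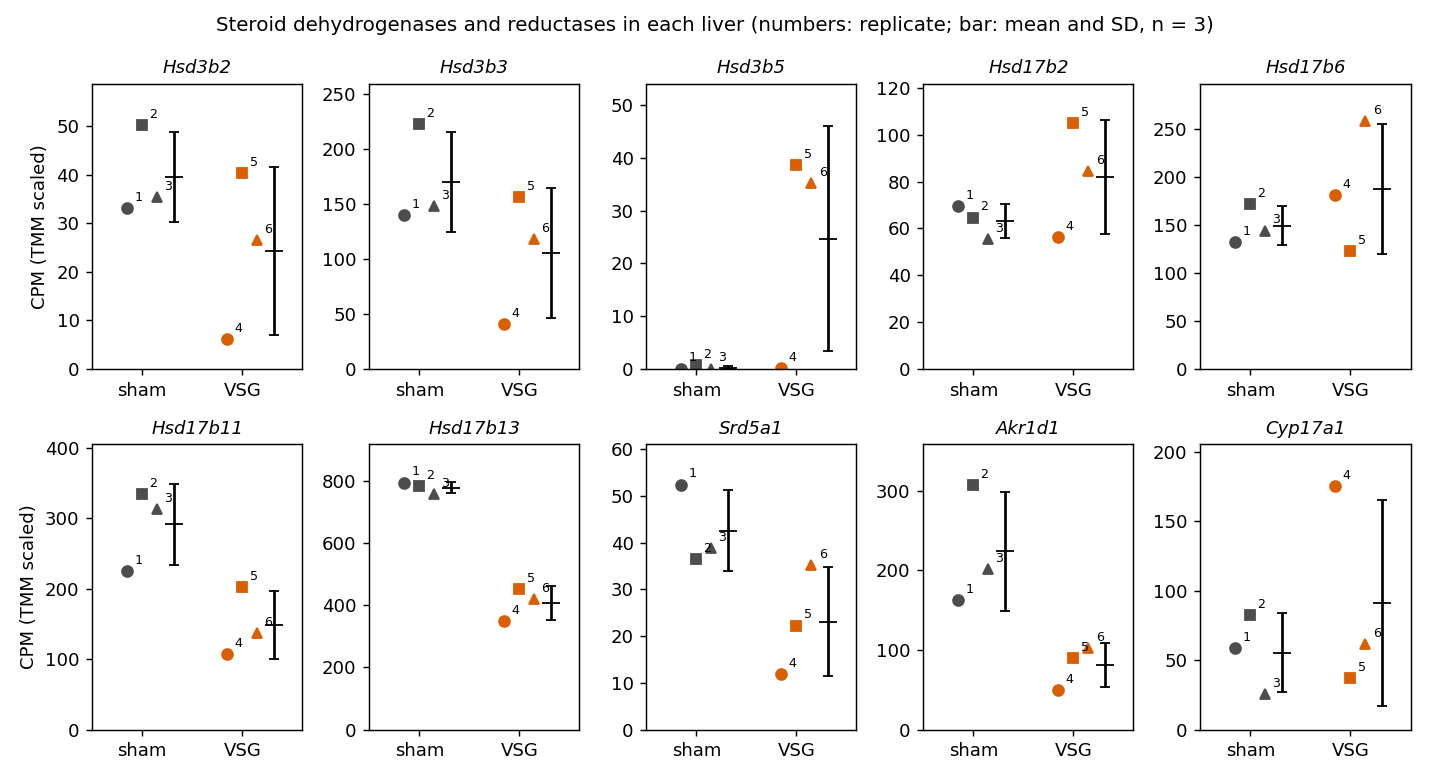
Level of each of the 10 genes in the 6 livers, in CPM on a linear axis that starts at 0; each point is a library marked with its replicate number, and the bar is the mean and SD of 3. The groups did not overlap for Hsd17b11, Hsd17b13, Srd5a1 and Akr1d1, Hsd3b5 was high in VSG 5 and VSG 6 and near 0 in the other 4 libraries, and VSG 4 lay lowest in 6 of the panels.

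**Figure D2:**
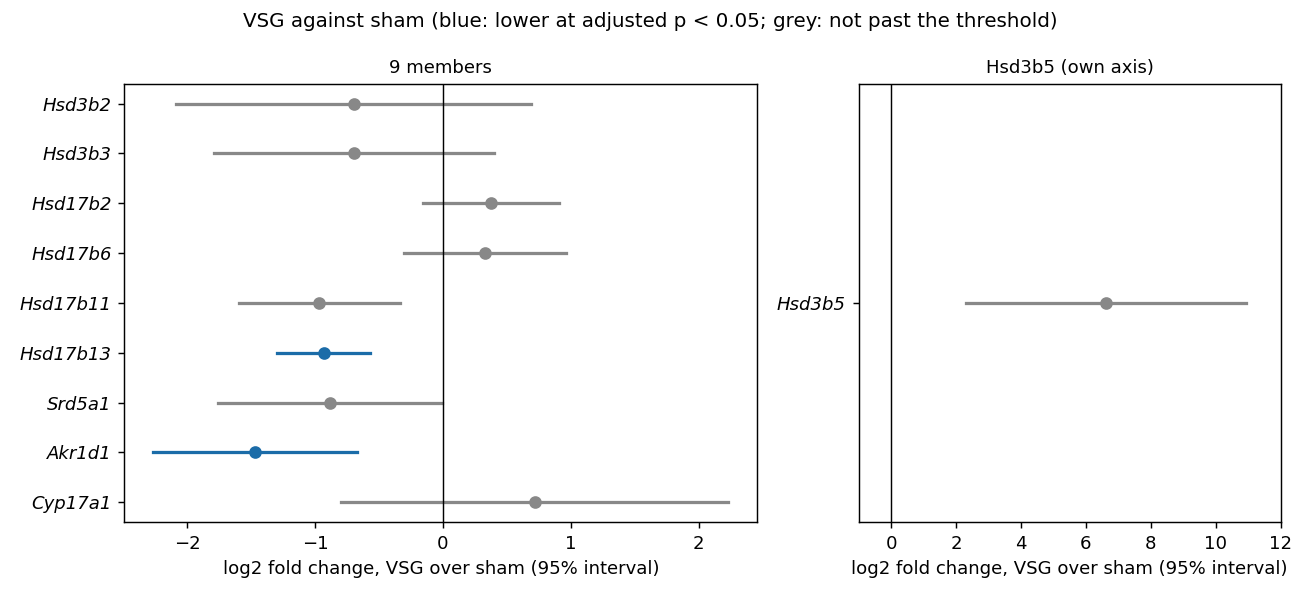
Log2 fold change of each gene, VSG over sham, with its 95% interval from the edgeR fit; blue marks an adjusted p under 0.05 and grey the rest, with Hsd3b5 on an axis of its own. The intervals of Hsd17b11, Hsd17b13, Srd5a1 and Akr1d1 lay below 0 and that of Hsd3b5 above it, and only Hsd17b13 and Akr1d1 passed after adjustment.

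Hsd17b13 encodes a lipid droplet protein of the hepatocyte with retinol dehydrogenase activity (chr5:103955440-103977410, minus strand). It was at 793, 781 and 757 CPM in the sham libraries and at 348, 453 and 420 CPM in the VSG libraries. Every VSG library was below every sham library, and the sham libraries differed little among themselves. The mean went from 777 ± 18.3 to 407 ± 53.6 CPM (SD, n = 3 each), a log2 fold change of -0.93 (SE 0.15, 95% interval -1.30 to -0.57, edgeR adjusted p = 0.0163). The call was lost without sham 3 (adjusted p = 0.0818) and without VSG 6 (adjusted p = 0.0741), and held without each of the other 4 libraries.

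Hsd17b11, its neighbour on chromosome 5 and a relative in sequence (66.6% identity over the coding bases), encodes another lipid droplet protein of the family (chr5:103989762-104021919, minus strand). It had 225, 334 and 313 CPM in sham and 107, 202 and 137 CPM in VSG. The groups did not overlap here either, but the sham libraries were more spread than those of Hsd17b13. Means were 291 ± 57.8 and 149 ± 48.3 CPM, the log2 fold change was -0.97 (SE 0.27, 95% interval -1.60 to -0.34), and the edgeR adjusted p of 0.0547 missed the threshold. It passed in 4 of 13 alternatives, with DESeq2 (adjusted p = 0.00517), with scaling to total counts (0.0319), with every gene that had a count kept (0.0265) and without VSG 5 (0.0196). The ratio of Hsd17b13 to Hsd17b11 in FPKM was 5.33, 3.54 and 3.66 in sham and 4.91, 3.39 and 4.63 in VSG, ranges that overlap.

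Since both proteins coat lipid droplets, the other genes of that compartment were read beside them. Of 15 tested, 11 were lower after VSG and none higher, with a median log2 fold change of -1.10, beside 7.87% of all genes called lower. The number called lower was 6 without sham 2 or VSG 4, 2 without sham 3 or VSG 6, and 8 to 11 without the others. The droplet fusion gene Cidec averaged 90.9 ± 30.0 CPM in sham liver against 1.02 ± 0.58 CPM after VSG (log2 fold change -6.47, SE 0.44, edgeR adjusted p = 0.00177). The coat protein gene Plin4 averaged 108.6 ± 30.3 CPM in sham liver against 13.2 ± 7.35 CPM after VSG (log2 fold change -3.04, SE 0.43, edgeR adjusted p = 0.0115). The summed level of the list was 1612 to 1880 CPM in sham and 726 to 888 CPM in VSG.

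Akr1d1 encodes the steroid 5-beta-reductase, which reduces the ring double bond of ketosteroid hormones and of bile acid precursors (chr6:37530173-37568815, plus strand). Its levels were 162, 307 and 202 CPM in sham and 49.7, 89.8 and 103 CPM in VSG. The groups did not overlap, although sham 2 was well above the other sham libraries. The mean went from 224 ± 74.6 to 80.8 ± 27.7 CPM, a log2 fold change of -1.47 (SE 0.34, 95% interval -2.27 to -0.67, edgeR adjusted p = 0.0342). The call was lost without sham 2 (adjusted p = 0.0834), sham 3 (0.112), VSG 4 (0.0563) or VSG 6 (0.0842), so it depended on all but 2 of the libraries.

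Srd5a1 encodes a steroid 5-alpha-reductase, which acts on the same double bond and gives the other ring geometry (chr13:69573449-69611442, minus strand). It was at 52.4, 36.5 and 38.8 CPM in sham and at 11.9, 22.2 and 35.1 CPM in VSG. The highest VSG library, VSG 6, came close to the lowest sham library without reaching it. The log2 fold change was -0.88 (SE 0.37, 95% interval -1.76 to -0.01), and the edgeR adjusted p of 0.145 did not pass, nor did any of the alternatives tried (adjusted p 0.0832 to 0.286, log2 fold change -0.57 without VSG 4 and -1.32 without VSG 6). The FPKM of Akr1d1 over that of Srd5a1 was 3.12, 8.47 and 5.23 in sham and 4.20, 4.06 and 2.94 in VSG, and these ranges overlapped.

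The Hsd3b genes varied widely among the VSG animals. Hsd3b3 (chr3:98741523-98763127) and Hsd3b2 (chr3:98709255-98724543) encode enzymes that oxidise the ring hydroxyl and shift the double bond on the path to active steroids. Hsd3b3 was at 140, 223 and 148 CPM in sham and at 41.0, 157 and 118 CPM in VSG. Hsd3b2 was at 33.1, 50.3 and 35.4 CPM in sham and at 6.06, 40.4 and 26.6 CPM in VSG. VSG 4 was lowest for both genes, while VSG 5 lay within the sham range. The log2 fold changes were -0.69 (SE 0.46, edgeR adjusted p = 0.323) for Hsd3b3 and -0.70 (SE 0.58, adjusted p = 0.426) for Hsd3b2. The 95% intervals, -1.79 to 0.40 and -2.09 to 0.69, were wide and held 0. Without VSG 4 the values were -0.31 and -0.24 and without VSG 5 they were -1.11 and -1.29, and neither gene passed in any alternative tried. The FPKM ratio of Hsd3b3 to Hsd3b2 was between 2.24 and 2.57 in 5 libraries and 3.90 in VSG 4.

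Hsd3b5 (chr3:98618634-98630252) encodes a ketosteroid reductase of the male mouse liver that inactivates androgens. Its counts were 2, 15 and 1 in sham and 2, 902 and 739 in VSG, or 0.07, 0.69 and 0.04 CPM against 0.09, 38.6 and 35.3 CPM. VSG 5 and VSG 6 were thus far above all sham libraries, while VSG 4 was among them and, like sham 1 and sham 3, below the floor. The fitted log2 fold change was 6.62 (SE 1.81, 95% interval 2.32 to 10.93), with an edgeR adjusted p of 0.0539 that missed the threshold. Without VSG 4 it was 7.22 (adjusted p = 0.00787). It also passed with DESeq2 (0.00446), with scaling to total counts (0.0432) and with every gene that had a count kept (0.0165). The other 8 alternatives of 12 did not pass, with adjusted p of 0.467 in limma-voom, 0.152 in limma on log2(FPKM + 1) and 0.0704 to 0.186 without each of the other 5 libraries. Its log2 fold change was lowest in limma on log2(FPKM + 1), at 2.91, and highest at 8.65 without sham 2, the sham library with 15 of the 18 counts. With 10 counts required in every library the gene was not tested.

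Summed over the 6 Hsd3b genes of the chromosome 3 cluster, a value that depends less on how reads were split among them, levels were 174, 274 and 184 CPM in sham and 47.1, 236 and 180 CPM in VSG. The sum overlapped between the groups and was lowest in VSG 4 (log2 fold change -0.45, SE 0.53, 95% interval -1.71 to 0.82, edgeR adjusted p = 0.579). Within it the share of the raw counts that fell on Hsd3b5, not scaled to length, was 0.0426%, 0.250% and 0.0207% in sham. In VSG 4 it was 0.192% (95% Wilson interval 0.0527% to 0.698%), in VSG 5 16.4% (15.4% to 17.4%) and in VSG 6 19.6% (18.3% to 20.9%). These intervals cover counting error only. Hsd3b5 was counted over 1549 bases and Hsd3b3 over 6396, so the shares are lower than they would be per length. Hsd3b5 stood at 24.9 and 22.8 FPKM in VSG 5 and VSG 6. There Hsd3b3 stood at 24.5 and 18.5 FPKM and Hsd3b2 at 10.9 and 7.19 FPKM.

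Hsd3b3 and Hsd3b5 went apart in VSG 5 and VSG 6, and their promoters are shown for that reason. Each is the 250 bases before a RefSeq start on GRCm38.p6, minus strand, at chr3:98763129-98763378 for Hsd3b3 and chr3:98645535-98645784 for Hsd3b5. Capitals mark bases that differ from the other gene or have no partner in the alignment, 99 in each. Of 199 aligned bases 75.9% were identical. The RefSeq start of Hsd3b5 lies 15282 bases from the start that the deposited count table gives for the gene.
Hsd3b3: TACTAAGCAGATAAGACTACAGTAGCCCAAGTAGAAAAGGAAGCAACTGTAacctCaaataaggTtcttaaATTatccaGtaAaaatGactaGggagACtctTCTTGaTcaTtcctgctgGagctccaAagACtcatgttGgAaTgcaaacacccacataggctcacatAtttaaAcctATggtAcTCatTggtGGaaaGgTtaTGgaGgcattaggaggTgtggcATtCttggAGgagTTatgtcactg
Hsd3b5: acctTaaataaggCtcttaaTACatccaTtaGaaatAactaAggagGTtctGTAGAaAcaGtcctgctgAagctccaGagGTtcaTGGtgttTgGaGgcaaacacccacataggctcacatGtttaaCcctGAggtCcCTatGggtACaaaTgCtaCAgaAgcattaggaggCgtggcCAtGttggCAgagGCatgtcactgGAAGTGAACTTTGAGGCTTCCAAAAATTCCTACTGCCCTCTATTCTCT

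A RefSeq promoter of this kind was matched for 8 of the 10 members, all but Hsd17b2 and Cyp17a1. On both strands, none of the 10 windows of these 8 genes (Hsd3b3 and Hsd17b6 have 2 RefSeq starts each) held the STAT5 motif TTCNNNGAA, present in 7.02% of 32851 promoters, or the C/EBP motif TTGCGCAA, present in 0.164%. The core of the androgen and glucocorticoid receptor site, TGTTCT, present in 16.1%, occurred in Hsd3b2 alone. These matches describe letters in a window and nothing about binding.

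Because Hsd3b5 is male-biased, the other male-biased genes of mouse liver were read in the same libraries. Of 15 tested, 3 were higher after VSG and none lower, with a median log2 fold change of 0.48. Of all genes tested, 6.79% were called higher and 7.87% lower. The higher ones were the urinary protein gene Mup7 (2.61 ± 3.80 CPM in sham, 326 ± 272 CPM in VSG, log2 fold change 7.01, SE 1.61, edgeR adjusted p = 0.0346), the protease inhibitor gene Serpina1e and the complement gene C6. Mup7, a close copy of other Mup genes and so uncertain in its counts, had 10, 153 and 12 counts in sham and 553, 12953 and 8374 in VSG, which puts VSG 4 lowest of the VSG libraries as for Hsd3b5. VSG 4 was the lowest VSG library in 14 of the 15 male-biased genes and in 8 of the 10 members, beside 36.1% of all genes tested. The summed level of the list was 2740 to 5317 CPM in sham and 5743, 12937 and 11125 CPM in VSG 4, 5 and 6, a separation that came from Serpina1e. Without Serpina1e, a choice made after seeing the values, the sum was 2650, 5075 and 2923 CPM in sham and 1257, 5965 and 3866 CPM in VSG, so the groups overlapped and VSG 4 lay below every sham library. Of the 12 genes that did not pass, 4 had negative log2 fold changes, among them Mup20 (-1.28, edgeR adjusted p = 0.171) and Cyp4a12a (-1.25, adjusted p = 0.266). The number called higher was 2 without sham 1, 1 without sham 3 and 0 without VSG 6, and 3 or 4 without the others, with 1 gene called lower without VSG 5.

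The summed female-biased list was lower in each of the 3 VSG livers than in any sham liver. Of 9 genes tested, 7 were lower and none higher, beside 7.87% of all genes called lower. The summed level was 250, 712 and 488 CPM in sham against 42.0, 57.7 and 37.6 CPM in VSG, with no overlap. Of the 9, 4 had 3 counts or fewer in every VSG library and so passed the filter on low counts only through sham. With 10 counts required in every library 4 were tested and called lower, and with limma-voom also 4. The number called lower in edgeR was 2 without sham 3, 1 without VSG 6 and 6 to 8 without the others. Cyp2a4, a steroid hydroxylase gene of female liver, had 1720, 266 and 432 counts in sham and 3, 3 and 0 in VSG. For this list VSG 4 lay between the other VSG libraries.

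**Figure D3:**
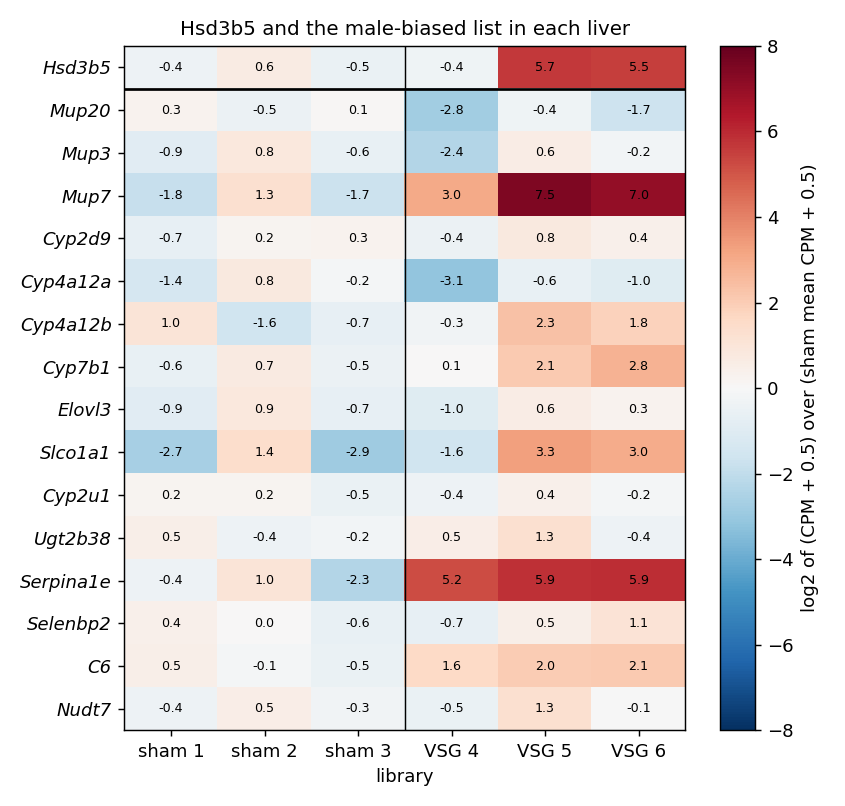
Hsd3b5 (top row) and the 15 tested male-biased genes in each library, as log2 of CPM plus 0.5 over the sham mean plus 0.5; red is above and blue below the sham mean. Hsd3b5 was at 5.67 and 5.54 in VSG 5 and VSG 6 and at -0.37 in VSG 4, and Mup7 at 7.48, 7.01 and 3.04.

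Hsd17b2 encodes an oxidative enzyme that turns estradiol and testosterone into their less active keto forms (chr8:117701904-117759027, plus strand). It was at 69.5, 64.6 and 55.4 CPM in sham and at 56.5, 105 and 84.5 CPM in VSG. VSG 5 and VSG 6 were above the sham range and VSG 4 within it (log2 fold change 0.38, SE 0.22, edgeR adjusted p = 0.276; 0.59 without VSG 4 and 0.14 without VSG 5). Hsd17b6, a retinol dehydrogenase-like enzyme that acts on androgens (chr10:127990936-128007611, minus strand), was at 133, 172 and 144 CPM in sham and at 181, 123 and 259 CPM in VSG. Here VSG 5 was the lowest of all 6 libraries and VSG 6 the highest (log2 fold change 0.33, SE 0.27, edgeR adjusted p = 0.417; 0.54 without VSG 5 and 0.03 without VSG 6). The FPKM ratio of Hsd17b2 to Hsd17b6 was 0.255 to 0.697 in VSG and 0.308 to 0.429 in sham.

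Cyp17a1 encodes the hydroxylase and lyase that makes androgen precursors from progestogens (chr19:46667165-46673172, minus strand). It was at 58.6, 82.4 and 25.6 CPM in sham and at 175, 36.9 and 61.6 CPM in VSG. VSG 4, the lowest VSG library for 8 members, was the highest of all for this gene, and the other VSG libraries lay within the sham range. The log2 fold change of 0.72 (SE 0.64, 95% interval -0.80 to 2.23, edgeR adjusted p = 0.453) became -0.17 without VSG 4 (adjusted p = 0.839).

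**Figure D4:**
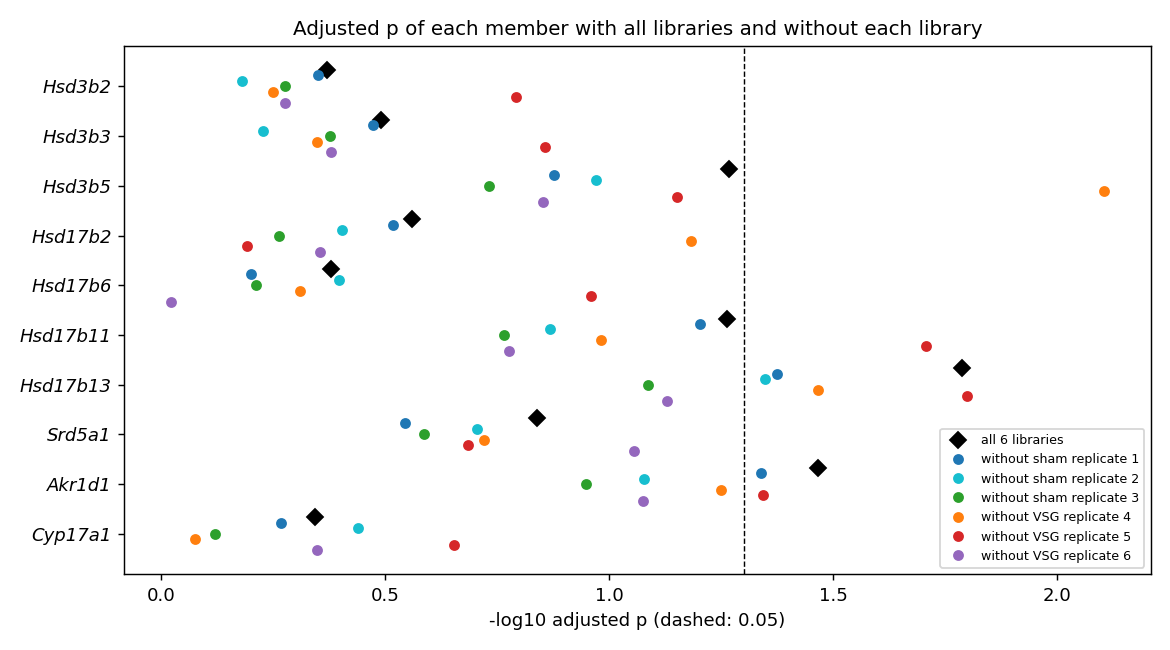
Adjusted p of each gene, as -log10, with all 6 libraries (black diamond) and without each library in turn (coloured points); the dashed line is 0.05. Points of Hsd17b13 and Akr1d1 lay on both sides of the line, and Hsd3b5 and Hsd17b11 each crossed it without 1 library, VSG 4 and VSG 5 respectively.

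The remaining genes of the same families were mixed. Of 5 other Hsd17b genes tested, Hsd17b12, a reductase of fatty acid elongation, was lower (246 ± 39.9 to 125 ± 19.7 CPM, log2 fold change -0.97, SE 0.17, edgeR adjusted p = 0.0196), a call lost without sham 3 (adjusted p = 0.0893) or VSG 6 (0.0569). Hsd17b4, an enzyme of peroxisomal fat oxidation, and the mitochondrial Hsd17b10 had log2 fold changes of -0.88 and -0.94 and missed the threshold (edgeR adjusted p 0.0510 and 0.0519), as did the sterol synthesis gene Hsd17b7 (-0.20, adjusted p = 0.751), while DESeq2 called 3 of the 5 lower. The median of the 5 was -0.88, and 7.87% of all genes tested were called lower in edgeR. Of 4 other Hsd3b genes only Hsd3b7, which acts in bile acid synthesis, was tested and did not pass (log2 fold change 0.53, edgeR adjusted p = 0.103), since Hsd3b1, Hsd3b4 and Hsd3b6 had at most 4 counts in a library.

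Of 13 other steroid reductases and dehydrogenases tested, 2 were lower and 1 higher, with a median of -0.34. These calls stand beside 14.7% of all genes called in either direction. Rdh16, a retinol and steroid dehydrogenase gene, averaged 173 ± 44.7 CPM in sham liver against 56.7 ± 1.69 CPM after VSG (log2 fold change -1.61, SE 0.19, edgeR adjusted p = 0.00792), a call lost only without VSG 6 (adjusted p = 0.0520). The aldo-keto reductase gene Akr1c20 averaged 102 ± 32.4 CPM in sham liver against 32.7 ± 13.1 CPM after VSG (log2 fold change -1.65, SE 0.36, edgeR adjusted p = 0.0323). Rdh16f2, from the same gene family as Rdh16, was higher, from 36.6 ± 16.8 to 105 ± 10.7 CPM (log2 fold change 1.52, SE 0.32, edgeR adjusted p = 0.0280). The cortisone reductase gene Hsd11b1 (-0.29, adjusted p = 0.561), Akr1c6 (-0.15, adjusted p = 0.777), Akr1c12 (-0.46, adjusted p = 0.180), Akr1c13 (-0.53, adjusted p = 0.120) and Akr1c14 (-0.57, adjusted p = 0.456) did not pass in edgeR. The call of Akr1c20 was lost without sham 2, sham 3 or VSG 6 (adjusted p 0.0789 to 0.114) and that of Rdh16f2 without sham 1, sham 3 or VSG 6 (0.0747 to 0.0943). These families hold close copies, whose share of reads is uncertain.

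**Figure D5:**
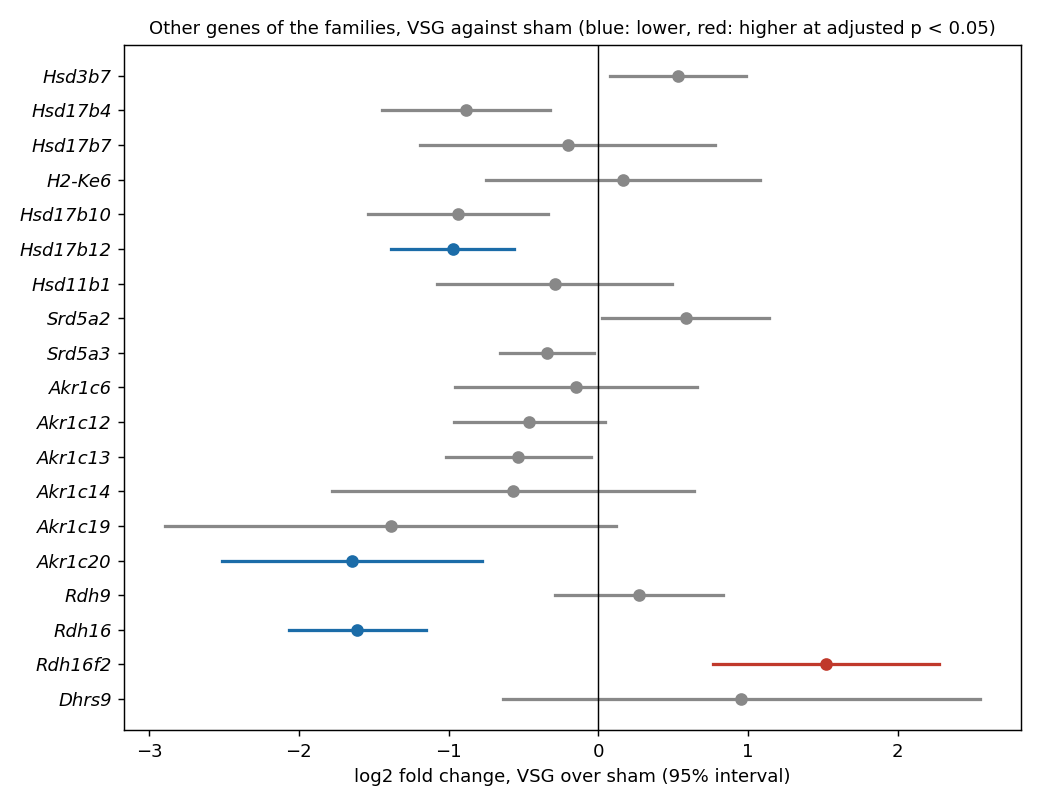
Log2 fold change, VSG over sham, with its 95% interval for the 19 other genes of the families that were tested; blue marks lower and red higher at an adjusted p under 0.05. Hsd17b12, Akr1c20 and Rdh16 were lower, Rdh16f2 was higher, and the other 15 did not pass.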

How the data were processed

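The authors deposited raw counts per gene and a column of exon length in bases; per the submitters' processing notes these came from FastQC 0.10.1, STAR 2.6.0 and featureCounts 2.0.3 on mm10. The annotation release, strand option and treatment of multiply mapped reads are not given in the sources used here. Identifiers were matched to GENCODE M21 (54487 of 55385 with version, 55144 without, 241 unmatched; all 10 members with version and coordinates). In R 4.3.3, genes passing filterByExpr (minimum 10, total 15) were fitted in edgeR 4.0.16 with TMM factors and group as the only term, with p-values adjusted by Benjamini-Hochberg over 14454 genes. FPKM used the deposited length. Alternatives were DESeq2 1.42.0, limma 3.58.1 (voom, and log2(FPKM + 1)), RLE and total-count scaling, other filters and each library left out. The scripts were tested on simulated data. The members and lists were chosen with earlier results of these data known. Named genes were the 10 members, up to 3 per related list with the largest change among those called, not overlapping and at 1 CPM or more, and other family genes at 10 FPKM or more. Hsd3b7, Mup20, Cyp4a12a, Trf, Socs2, Cish and genes named for having few or no counts were chosen after their values were seen. Of the wider lists, Hsd3b8 and Hsd3b9 were not found by name. Promoters came from RefSeq (GRCm38.p6). Replicates are 3 animals per group, so each p-value sets the difference between the groups against the spread between animals. In edgeR that spread was estimated with the help of all genes tested.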

Additional observations from a re-analysis of the deposited data

How the results depend on the processing

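Genes called numbered 2118 in edgeR and 3288 in DESeq2, and 159 to 2732 when 1 library was left out, fewest without sham 3 and next without VSG 6 (210). Of the 10 members, 2 were called in edgeR, 4 with DESeq2, with total counts and with every gene that had a count kept (Hsd3b5 and Hsd17b11 in addition), and 0 to 3 with 1 library left out (0 without sham 3 or VSG 6, 1 without sham 2). Cyp17a1 ranged from -0.17, a reversal without VSG 4, to 1.11 with 1 library left out. The Hsd3b sum passed in none of 13 alternatives (-0.90 to -0.02). Hsd17b13 passed in 11 of 13 and Akr1d1 in 9 of 13, both always lower. The cause of these differences was not tested. Total-count scaling moved the median of all genes from 0.03 to -0.11. A prior count of 2, chosen after seeing the data and not among the 13, acts on fold changes alone and gave 6.22 for Hsd3b5 (6.62 by default). No paired analysis was possible because sham libraries were numbered 1 to 3 and VSG libraries 4 to 6. With 3 animals a group, a miss of the threshold does not show that a gene did not differ. Hsd3b5 in sham rested on 18 counts in all.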

Other observations

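Among 13 tested genes of steroid and growth hormone signalling, the oestrogen receptor gene Esr1 was higher after VSG, from 35.2 ± 6.33 to 68.9 ± 4.58 CPM (SD, n = 3 each, log2 fold change 0.97, SE 0.15, edgeR adjusted p = 0.0141, 0.0569 without VSG 6), and the other 12 did not pass, while DESeq2 called 3 higher. Of those 12, Socs2 was at 4.58, 5.62 and 3.65 CPM in sham and 28.3, 22.4 and 5.58 CPM in VSG (log2 fold change 2.03, edgeR adjusted p = 0.0540). Cish was at 5.91, 5.16 and 3.42 CPM in sham and 42.7, 19.8 and 5.25 CPM in VSG (2.22, edgeR adjusted p = 0.0735). Both were highest in VSG 4, where Hsd3b5 was near 0. The part of growth hormone signalling in the results was not tested. Of 7 tested steroid synthesis cytochromes and their electron donors none passed in edgeR, though 3 were lower at an unadjusted p under 0.05 and in DESeq2, with a median log2 fold change of -0.37. Of 9 stellate cell markers Reln alone was lower in edgeR (log2 fold change -1.27, adjusted p = 0.0328) and 6 were in DESeq2, of 5 tested bile duct markers Sox9 was higher (1.77, edgeR adjusted p = 0.0359), and of 6 endothelial markers none passed in edgeR or DESeq2 (1 at an unadjusted p under 0.05).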
